A study of Mus musculus with 7 samples.

Results

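A set of 10 genes of microbial sensing was followed through every cell cluster of mouse epidermis after bone marrow transplantation (BMT). They are the Toll-like receptor genes Tlr2, Tlr3, Tlr4, Tlr7, Tlr8, Tlr9 and Tlr13, the co-receptor genes Cd14 and Ly96 (encoding MD-2), and the adaptor gene Myd88. The 10 members were taken by symbol from the 31907 genes listed in at least 1 of 3 expression tables. The donor myeloid table listed 8 of them among 15155 genes, without Cd14 and Myd88. The keratinocyte table listed all 10 among 26383 genes. The host myeloid table listed 8 among 23737 genes, without Tlr7 and Tlr8. A member that a table does not list has no value here, which says nothing of its expression.

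Transcripts of single cells were counted by unique molecular identifiers (UMIs) on a droplet platform, 3 weeks after transplantation. The hosts were male C57BL/6 mice (CD45.2) given a lethal dose of irradiation, and the marrow came from female C57BL/6 donors (CD45.1). Donor CD11b+MHCII+ cells came as 3 libraries labelled BMT (replicates 1 to 3) and 1 labelled BMT plus T cells (replicate 4, written BMT + T cells). CD45neg keratinocytes of the male hosts came as 1 library under each label, and host CD11b+MHCII+ cells as 1 library labelled BMT. The series' design text has the transplanted mice receive CD4 T cells together with CD8 T cells of the Matahari strain, which recognize a male antigen, and sets no libraries apart, so groups are named by label only. The study sorted epidermis pooled from several mice in each experiment, and the sources used here do not tie the pools to single libraries.

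Depth set what could be seen. The donor libraries held 2572, 8382, 226 and 719 cells in replicates 1 to 4, with median depths of 13387, 7021.5, 12081.5 and 12374 UMIs, the keratinocyte libraries 2836 and 2590 cells at 8895.5 and 8834, and the host library 781 cells at 4376. No pair of libraries shared more than 7 cell barcodes. Levels below are UMIs per 10,000 UMIs of a cell (CP10K), averaged over the cells of a library and cluster. Library and cluster pairs under 20 cells were left out, which kept 27 pairs in 9 donor clusters. CP10K is not scaled to transcript length, so levels are compared for the same gene between cells and never between genes. The donor clusters and their names are those of the authors and were made from these same cells, so differences between clusters describe that annotation.

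The names of the clusters were checked against marker levels summed over cells. Resident monocyte-derived Langerhans cells (resident mLCs) had Epcam, an epithelial adhesion gene of Langerhans cells, at 19.4 to 32.2 CP10K, against 0.286 to 1.37 in classical monocytes (Mono). Cd207, which encodes Langerin, was at 1.25 to 10.6 in resident mLCs and at most 0.194 in Mono. Lyz2, a lysozyme gene of monocytes and macrophages, ran the other way, at 50.8 to 175 CP10K in Mono and 1.04 to 3.18 in resident mLCs. The 4 macrophage markers together were at 56.6 to 70.6 CP10K in Mrc1+ macrophages and at most 33.4 in Mono, but Mrc1 itself did not set that cluster apart, at 1.59, 7.003, 6.03 and 2.03 against 1.47, 6.93, 5.20 and 6.22 in the Mono of replicates 1 to 4. Of the 6 keratinocyte markers, 5 were listed in the donor table, and their summed level was at most 1.96 CP10K in any donor cluster.

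Toll-like receptors bind conserved parts of microbes and of damaged cells. Tlr2 and Tlr4 stand on the cell surface. Tlr2 pairs with Tlr1 or Tlr6 to bind bacterial lipopeptides, and Tlr4 needs Ly96, with help from Cd14, to bind lipopolysaccharide. Tlr3, Tlr7, Tlr8, Tlr9 and Tlr13 sit in endosomes and read nucleic acids, and Unc93b1 carries them there. All but Tlr3 signal through Myd88, and the signal ends in NF-kappaB and interferon regulatory factors. Langerhans cells sit in the outermost living layer of skin, where they meet commensal bacteria.

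Tlr7, Tlr8 and Tlr13 lie on the X chromosome. On GRCm38.p6, the Tlr13 gene spans chrX:106143275-106160493, and Tlr8 (chrX:167241123-167264329) and Tlr7 (chrX:167303380-167330574) are neighbours. The others that fell in resident mLCs are autosomal, Tlr2 at chr3:83836272-83841824 and Ly96 at chr1:16688456-16709605.

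The bases before the transcription start of Tlr13 and Tlr8 are printed because these endosomal receptor genes were both lower in resident mLCs than in Mono, as the levels below show. The sequences come from RefSeq (GRCm38.p6). Windows of 6 of the 10 members were searched (Tlr2, Tlr3, Tlr8, Tlr9, Tlr13 and Myd88). Ly96, Tlr4 and Tlr7 had no entry, and Cd14 was left out of the search. Each printed sequence runs 5′ to 3′ on the gene's strand and ends at the base before the start. Capitals mark matches, on either strand, to GAGGAA (a core bound by the myeloid factor PU.1 and other ETS factors) or to TTGCNNAA (a C/EBP site).
Tlr13, chrX:106143025-106143274, plus strand: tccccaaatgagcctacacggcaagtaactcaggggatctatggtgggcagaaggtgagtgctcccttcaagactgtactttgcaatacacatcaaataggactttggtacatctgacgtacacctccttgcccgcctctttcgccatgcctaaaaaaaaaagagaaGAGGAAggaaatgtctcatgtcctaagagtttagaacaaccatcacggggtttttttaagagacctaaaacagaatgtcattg
Tlr8, chrX:167264330-167264579, minus strand: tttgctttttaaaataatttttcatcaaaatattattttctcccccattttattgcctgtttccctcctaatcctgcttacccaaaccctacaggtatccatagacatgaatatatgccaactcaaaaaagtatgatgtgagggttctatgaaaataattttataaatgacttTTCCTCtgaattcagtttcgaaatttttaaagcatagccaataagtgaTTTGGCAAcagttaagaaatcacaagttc
GAGGAA begins 83 bases before the start in Tlr13, and its reverse complement begins 77 bases before the start in Tlr8. Of all 32851 promoter windows of 250 bases, 23.3% hold GAGGAA and 9.56% hold TTGCNNAA, so either match is common. An interferon-response element (GAAA, any pair of bases, GAAA), held by 2.98% of windows, and a kappaB site (GGGA, any base, TTTCC), held by 0.356%, were searched on both strands too. Among the 6 member windows, the interferon-response element was found in Myd88 and the kappaB site in Tlr3, GAGGAA also in Tlr9 and TTGCNNAA also in Tlr3. The Tlr2 window held none of the 4 motifs in the exact form searched. Looser forms of these sites were not searched. A match is a string of letters and not a measured binding site.

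Tlr2 was the member with the most donor UMIs, 16241 in all. Its level in Mono was 3.54, 2.97, 0.649 and 1.25 CP10K in replicates 1 to 4, and in resident mLCs 0.594, 0.573, 0.427 and 0.516. Every resident mLC value was under every Mono value, although the Mono of replicate 3 came close. How many of all genes separated these clusters in this way was not counted, so the gap is a description. The mean was 2.10 ± 1.37 CP10K in Mono and 0.528 ± 0.0746 in resident mLCs (SD, n = 4 each).

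Across all clusters, Tlr2 stood highest in Hmox1+ monocytes, named for the heme-degrading enzyme heme oxygenase 1. They had 4.98, 3.91 and 2.83 CP10K in replicates 1, 2 and 4. S100a+ monocytes, which had at least 20 cells in replicate 2 alone, stood at 2.81. Interferon-stimulated (ISG) monocytes had a mean of 2.01 ± 0.400 (n = 3), Mrc1+ macrophages 1.33 ± 0.768 (n = 4) and MC, a monocyte-derived cluster that the authors read as transitional, 1.09 ± 0.199 (n = 3). Cycling mLCs followed at 0.813 ± 0.351 (n = 3), and migrating mLCs were lowest at 0.447 ± 0.0630 (n = 2). Leaving out the S100a+ monocytes with their single library, the libraries of each cluster overlapped those of the next in the order, so the order of those neighbours is not settled by these data.

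Tlr2 also separated libraries. In Mono and in Mrc1+ macrophages, replicates 1 and 2 were above replicates 3 and 4, whereas in resident mLCs the 4 libraries spanned only 0.427 to 0.594. By their short names, replicates 1 and 2 form a pair, and replicate 3 pairs with the BMT + T cells library. Read as separate experiments, which no label states, experiment and label cannot be fully told apart.

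**Figure D1:**
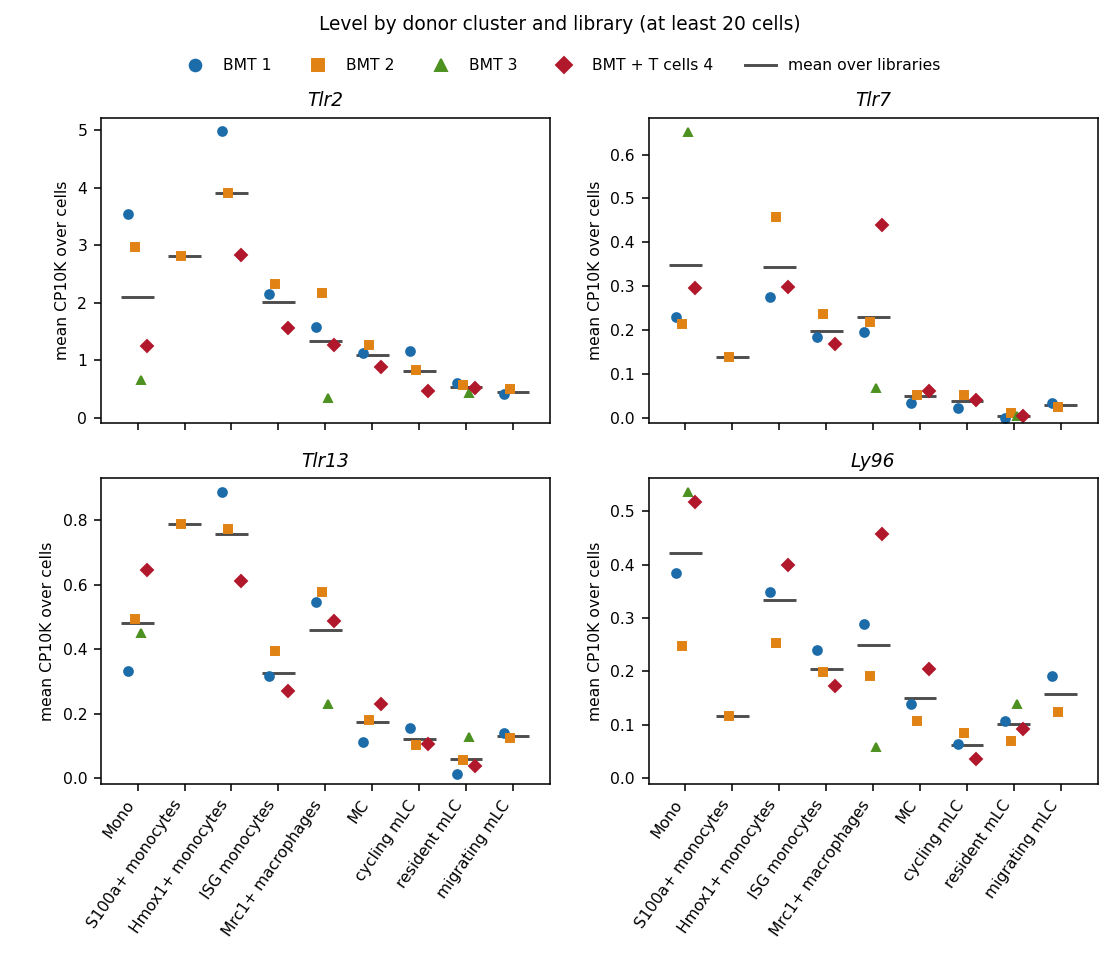
Mean level (CP10K, linear axis) of Tlr2, Tlr7, Tlr13 and Ly96 in 9 donor clusters, with 1 point for each library that had at least 20 cells and a bar at their mean. All 4 genes were lower in resident mLCs than in Mono in every library, and Tlr7 was at most 0.0107 CP10K in resident mLCs.

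The endosomal receptor genes Tlr7 and Tlr13 were at very low levels in resident mLCs. Tlr7, a sensor of single-stranded RNA, was at 0.229, 0.213, 0.652 and 0.295 CP10K in the Mono of replicates 1 to 4. In resident mLCs it was at 0, 0.0107, 0.00399 and 0.00289, from 14 UMIs in all. The 0 of replicate 1 rests on 105 cells and allows up to 0.0297 UMIs per 10,000. These groups did not overlap, and such gaps were not counted over all genes.

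Tlr13, which reads bacterial ribosomal RNA, was at 0.333, 0.493, 0.450 and 0.644 CP10K in Mono and 0.0135, 0.0559, 0.127 and 0.0366 in resident mLCs, again without overlap. Its highest level was shared by S100a+ monocytes (0.789, 1 library) and Hmox1+ monocytes (0.757 ± 0.138, n = 3). A Tlr13 UMI was found in 1.90 to 4.85% of resident mLCs and in 21.0 to 38.1% of Mono. The sorted keratinocytes, at the median depths given above, held a Tlr13 UMI in 0 of 5426 cells. After the expected loss from thinning every cell to 2000 UMIs, the mean share was 8.79% of Mono, and it was 0.324 to 2.01% of resident mLCs over the libraries.

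With the S100a+ monocytes and their single library left out, Tlr7 and Tlr13 both fell from ISG monocytes to MC, the next cluster in order. S100a+ monocytes lay between these clusters for Tlr7 (0.138 CP10K) and stood highest for Tlr13 (0.789). ISG monocytes had 0.197 ± 0.0359 CP10K of Tlr7 and MC 0.0485 ± 0.0138, and no library of either cluster overlapped the other. For Tlr13 the pair was 0.327 ± 0.0620 and 0.175 ± 0.0590 (n = 3 each), also without overlap. Tlr7 was further apart between migrating mLCs (0.0331 and 0.0237) and resident mLCs, which again did not overlap. The clusters were ordered by these same values. How many of all genes lacked overlap between these pairs of clusters was not counted, so the gaps are a description. Across the 27 library and cluster means, Tlr7 and Tlr13 had a Pearson r of 0.866 on the log2 scale, Tlr7 and Ly96 0.834, and Tlr2 and Ly96, the lowest pair, 0.517. Those points share libraries and depth, so the coefficients are a description.

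Ly96, the partner that Tlr4 needs for lipopolysaccharide, was at 0.384, 0.248, 0.537 and 0.518 CP10K in Mono and 0.106, 0.0701, 0.139 and 0.0929 in resident mLCs. No resident mLC library reached the lowest Mono library, a gap likewise not counted over all genes. Ly96 was lowest in cycling mLCs, at 0.0619 ± 0.0244 (n = 3), and in migrating mLCs it was 0.192 and 0.125 CP10K.

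Resident mLCs were compared with Mono, the monocytes they are thought to arise from, in a limma fit over every gene whose mean reached 0.1 CP10K. Values were log2(CP10K + 0.1), which understates the change of low genes, and a gene was called at an adjusted p under 0.05 and an absolute log2 difference above 1. Of the 8 members listed, 4 passed the filter on low levels (Tlr2, Tlr7, Tlr13 and Ly96), and all 4 were called lower in resident mLCs. Among the 7267 genes tested, 8.04% were called lower and 6.74% higher, and the median difference of all genes was 0.14 against -1.72 for the 4 members. Tlr7 and Tlr13 averaged 0.00439 and 0.0583 CP10K in resident mLCs and passed the filter only through other clusters. A call of these genes as higher in resident mLCs was thus all but shut out in advance. Without the filter, Tlr8 was called lower too, and Tlr3, Tlr4 and Tlr9 were not called. The count of 4 and the median carry the choice made by the filter and are a description.

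Tlr7 fell in resident mLCs by 2.00 ± 0.28 (SE) on the log2 scale (adjusted p = 3.94e-06). Tlr13 fell by 1.89 ± 0.25 (adjusted p = 1.65e-06), Tlr2 by 1.55 ± 0.24 (adjusted p = 1.26e-05) and Ly96 by 1.34 ± 0.27 (adjusted p = 0.000365). Each was lower in 4 of 4 libraries. With a pseudocount of 1 in place of 0.1, or with means of the deposited log values, none of the 4 passed the fold threshold, and they fell by 0.26 to 0.91 on the log2 scale, with adjusted p values that stayed under 0.05. With a pseudocount of 0.01, Tlr7 fell by 4.54 and Tlr13 by 3.09, and with limma-voom by 4.81 and 2.99.

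Resident mLCs and Mrc1+ macrophages are the fates the study sets against each other. Tlr2 in Mrc1+ macrophages was at 1.58, 2.17, 0.332 and 1.26 CP10K, and Tlr7 at 0.195, 0.217, 0.0673 and 0.439. Tlr13 was at 0.545, 0.579, 0.232 and 0.487, and Ly96 at 0.290, 0.192, 0.0578 and 0.457. Replicate 3 was the lowest for all 4 genes. Its Mrc1+ macrophages were 45 cells with a median of 2214 UMIs, and they gave 16 UMIs of Tlr2 and 4 of Ly96.

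Of the 4 members tested, 2 were called lower in resident mLCs than in Mrc1+ macrophages, while 8.11% of all genes tested were called lower and 5.75% higher. Tlr13 fell by 1.82 ± 0.25 (adjusted p = 3.32e-06) and Tlr7 by 1.54 ± 0.28 (adjusted p = 0.000131), each lower in 4 of 4 libraries. Both had passed the filter only through clusters other than resident mLCs, so their count is a description. The log2 difference of Tlr2 was -0.97 ± 0.24 (adjusted p = 0.00248), just short of the fold threshold, and that of Ly96 was -0.66 ± 0.27 (adjusted p = 0.0640). In replicate 3 these genes went the other way, by 0.29 and 0.60. Without that library all 4 were called, with Tlr2 at -1.39 (adjusted p = 1.50e-05) and Ly96 at -1.07 (adjusted p = 0.00114).

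**Figure D2:**
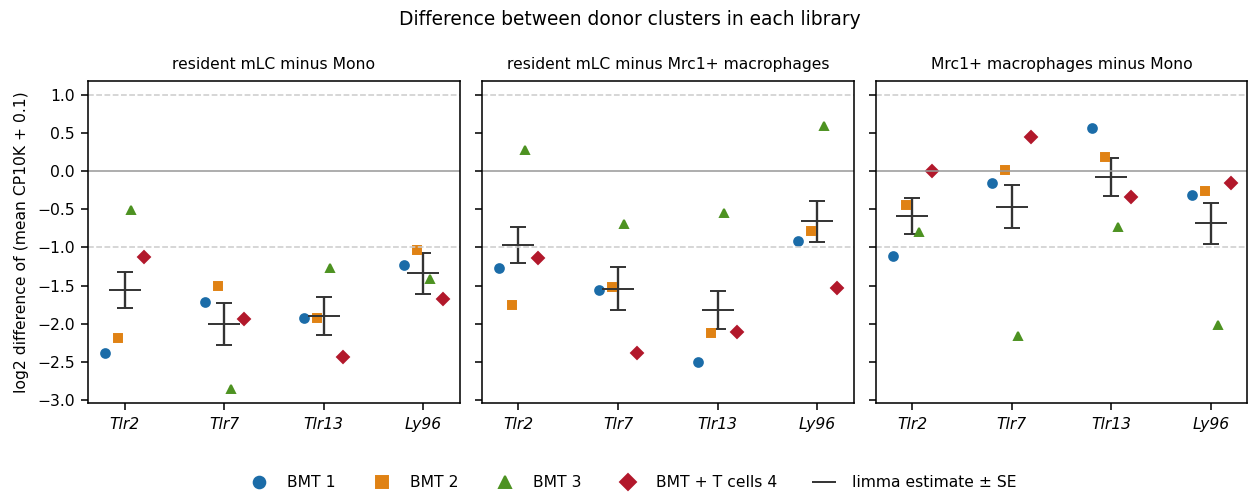
Log2 difference of (mean CP10K + 0.1) between donor clusters in each of 4 libraries, with the limma estimate and its SE, and dashed lines at the fold threshold of 1. All 16 library values lie below 0 for resident mLC minus Mono, whereas Tlr2 and Ly96 of BMT replicate 3 lie above 0 for resident mLC minus Mrc1+ macrophages.

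Between Mrc1+ macrophages and Mono, no member met the threshold. None of the 4 was called by limma or by limma-voom on recovered UMI sums, while 1.84% of all genes were called higher and 1.22% lower. An unadjusted p under 0.05 was reached by 1681 of the 7267 genes tested and by 2 of the 4 members. The 2 members were Tlr2, with a difference of -0.58 ± 0.24 (adjusted p = 0.135), and Ly96, with -0.68 ± 0.27 (adjusted p = 0.122). Tlr13 differed by -0.08 ± 0.25 and Tlr7 by -0.46 ± 0.28.

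Between MC and resident mLCs no member was called by limma either, against 3.78% of all genes called higher and 4.61% lower. Tlr13 came nearest, at 0.113, 0.182 and 0.230 CP10K in the MC of replicates 1, 2 and 4. Its difference of -0.80 ± 0.28 had an adjusted p of 0.0495 but missed the fold threshold. Within these libraries it differed by -0.91, -0.85 and -1.27, and without replicate 3, which had too few MC to enter, the fit gave -1.01 (adjusted p = 0.00265) and called it. All 4 members were lower in resident mLCs in 3 of 3 libraries, 2 of them (Tlr2 and Tlr13) at an unadjusted p under 0.05. Such a p was reached by 2094 of the 7267 genes tested. With limma-voom, Tlr7 (-2.26) and Tlr13 (-1.48) were called, as they were with a pseudocount of 0.01.

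Migrating mLCs, the cells poised to leave the epidermis, had these genes at low levels too. None of the 4 was called against resident mLCs by limma or limma-voom, with 5.11% of all genes called higher and 6.91% lower. One of them, Tlr2, had an unadjusted p under 0.05, with a difference of -0.74 ± 0.30 (adjusted p = 0.0804). Such a p was reached by 2437 of the 7267 genes tested. Within the libraries that held both clusters, Tlr2 differed by less, -0.46 in replicate 1 and -0.19 in replicate 2. Tlr13 differed by 0.58 ± 0.32 (adjusted p = 0.202) and was higher in both libraries that had enough migrating mLCs.

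ISG monocytes were compared with Mono because Tlr3, Tlr7 and Myd88 are known to respond to interferon. None of the 4 tested members was called by limma or limma-voom, where 1.1% of all genes were called higher and 0.592% lower. Of the 4, Ly96 alone had an unadjusted p under 0.05, with a difference of -0.79 ± 0.30 (adjusted p = 0.241). Such a p was reached by 772 of the 7267 genes tested. Tlr7 differed by -0.50 ± 0.31 (adjusted p = 0.640).

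Tlr3, which reads double-stranded RNA, did not pass the filter on low levels, and its highest cluster was the ISG monocytes. It was at 0.0966, 0.207 and 0.160 CP10K there in replicates 1, 2 and 4, and at 0.0498, 0.0606, 0.0816 and 0.184 in Mono. The groups overlapped. Fitted without the filter, the difference was 0.30 ± 0.26 (adjusted p = 1), and resident mLCs differed from Mono by -0.40 ± 0.24 (adjusted p = 0.289). Resident mLCs ranged from 0.00399 to 0.122 CP10K, from 65 UMIs in all.

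Tlr8, the X-linked neighbour of Tlr7, was the only 1 of the 4 low-level members called between resident mLCs and Mono when the filter was left out. It was at 0.0474, 0.114, 0.133 and 0.309 CP10K in Mono, and resident mLCs gave 3 UMIs, all in replicate 2, at 0.00200. Without the filter it fell by 1.22 ± 0.28 from Mono to resident mLCs (adjusted p = 0.00489), lower in 4 of 4 libraries, where 4.04% of 15145 genes were called lower and 3.82% higher. Against Mrc1+ macrophages its difference was -0.97 ± 0.28 (adjusted p = 0.0226), below the fold threshold. The Mrc1+ macrophages had 0.0901, 0.0740, 0.292 and 0.0169 CP10K, and the value of replicate 3 rests on 4 UMIs.

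Tlr9, which reads unmethylated CpG DNA, was highest in cycling mLCs, at 0.140, 0.0289 and 0.142 CP10K in replicates 1, 2 and 4. These came from 5, 11 and 2 UMIs. In resident mLCs it was at 0.0106, 0.0200, 0.0253 and 0.0184. Unlike Tlr7 and Tlr8, it did not go to 0 there in any library. Without the filter its difference from Mono was -0.47 ± 0.19 (adjusted p = 0.0969).

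Tlr4, the lipopolysaccharide receptor, was scarce in donor cells, with 129 UMIs in 124 of 11899 cells. Of these 124 cells, 29 also held a Ly96 UMI. Among all donor cells, a Ly96 UMI was in 24.9, 10.3, 27.0 and 19.5% in replicates 1 to 4, so the overlap is a description. Among the clusters with at least 20 cells in more than 1 library, Mrc1+ macrophages and migrating mLCs had a Tlr4 UMI in each such library. The Mrc1+ macrophages were at 0.0267, 0.0176, 0.0367 and 0.0759 CP10K from 12, 29, 1 and 1 UMIs. Resident mLCs held 5 UMIs, all in replicate 2. Fitted without the filter, resident mLCs differed from Mrc1+ macrophages by -0.45 ± 0.25 (adjusted p = 0.256).

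**Figure D3:**
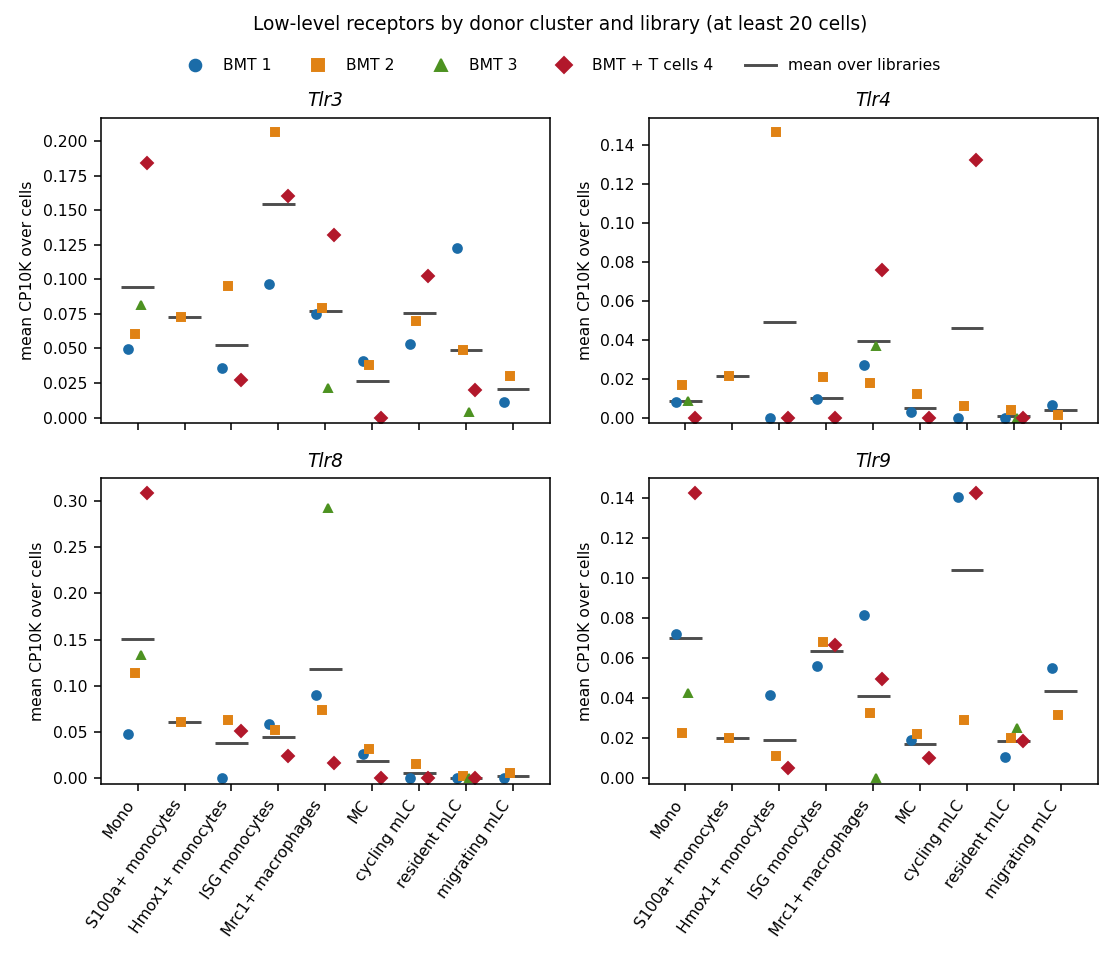
Mean level (CP10K, linear axes that differ between panels) of Tlr3, Tlr4, Tlr8 and Tlr9 in 9 donor clusters, with 1 point per library and a bar at the mean. Tlr8 sits at 0 in the resident mLCs of 3 libraries, while Tlr9 stays between 0.0106 and 0.0253 CP10K there.

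The rest of the pathway was followed in 7 lists of 62 other genes, of which 56 were listed and 45 passed the filter. From Mono to resident mLCs, 15 of the 45 were called lower and 0 higher, with a median of -0.41. Of all 7267 genes, 8.04% were called lower and 6.74% higher, with a median of 0.14. An unadjusted p under 0.05 was reached by 25 of the 45 and by 3060 of the 7267. Induced cytokines had 4 of 7 lower, inhibitors 4 of 6, trafficking and accessory genes 3 of 5, kinases and ubiquitin ligases 2 of 15, transcription factors 1 of 7, other receptors 1 of 2 and other adaptors 0 of 3.

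The largest falls in resident mLCs were those of Il1b (4.78 ± 0.53 on the log2 scale), the inflammatory cytokine interleukin-1 beta, Ccl5 (4.32 ± 0.48) and Ccl4 (2.90 ± 0.48), both chemokine genes, with adjusted p values of 2.17e-06, 1.22e-06 and 8.48e-05. Unc93b1, the carrier of the endosomal receptors, fell by 2.86 ± 0.24 (adjusted p = 8.32e-10). Tlr1, the partner of Tlr2, fell by 1.85 ± 0.29 (adjusted p = 1.61e-05), and its close paralog Tlr6, between which reads could be split, differed by -0.73 ± 0.25 without a call (adjusted p = 0.0295).

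Against Mrc1+ macrophages the lists gave 14 of 45 lower and 0 higher (median -0.37), where 8.11% of all genes were called lower and 5.75% higher. Ccl5 fell by 3.92 ± 0.48, Il1b by 3.86 ± 0.53 and Cd36, a scavenger receptor that assists Tlr2, by 3.37 ± 0.55. Unc93b1 fell by 2.43 ± 0.24 there (adjusted p = 1.62e-08). In resident mLCs against MC, 6 of 45 were called lower and 0 higher (median -0.06), beside 4.61% and 3.78% of all genes. The falls were led by Il1b (-3.25 ± 0.59), Cd36 (-3.23 ± 0.60) and Ccl5 (-1.91 ± 0.54). Between Mrc1+ macrophages and Mono limma called 0 of 45, with 3 at an unadjusted p under 0.05. All genes gave 1.84% called higher and 1.22% lower, with 1681 of 7267 at an unadjusted p under 0.05.

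Migrating mLCs differed from resident mLCs in the opposite direction. Here 15 of the 45 genes were called higher and 0 lower (median 0.19, against -0.26 for all genes). Among all genes tested, 5.11% were called higher and 6.91% lower. Ccl5 rose by 4.53 ± 0.61, Il12b, a subunit gene of interleukin-12, by 4.01 ± 0.30 and Il1b by 4.01 ± 0.67. The NF-kappaB subunit genes Rel (2.31 ± 0.27), Relb (2.24 ± 0.27), Nfkb2 (1.94 ± 0.33) and Nfkb1 (1.04 ± 0.29) rose too, as did the NF-kappaB inhibitor gene Nfkbia (2.40 ± 0.35). No tested member was among the calls, as given above. In ISG monocytes, 1 of 45 was called against Mono, the inhibitory kinase gene Irak3, which fell by 1.04 ± 0.23 (adjusted p = 0.0110). There 1.1% of all genes were called higher and 0.592% lower.

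**Figure D4:**
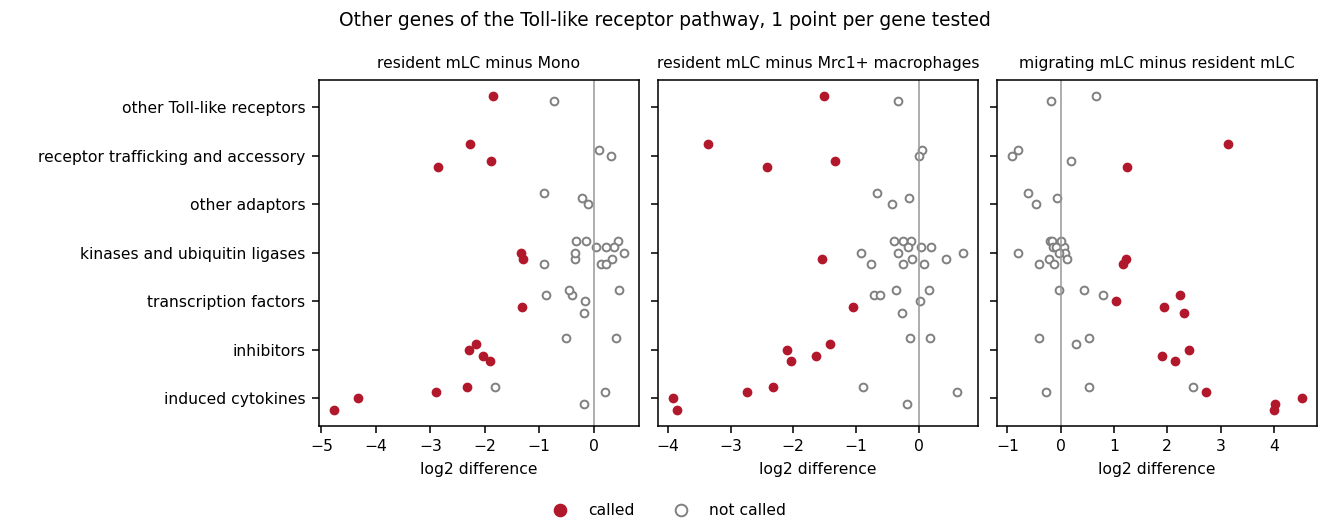
Log2 difference of (mean CP10K + 0.1) for 45 other genes of the pathway in 7 lists, with 1 point per gene and filled points for genes that were called. Called genes lie left of 0 (lower) for resident mLCs against Mono (15) and Mrc1+ macrophages (14), and right of 0 (higher) for migrating against resident mLCs (15). The matching shares of all genes tested were 8.04%, 8.11% and 5.11%.

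The donor libraries under the BMT + T cells and BMT labels were compared over the clusters with at least 20 cells in all 4 libraries (resident mLCs, Mono and Mrc1+ macrophages), with equal weights. The BMT + T cells label has a single library, whose spread was taken to equal that of the BMT label. limma called 0% of 7345 genes higher and 0% lower, and 316 had an unadjusted p under 0.05. None of the 4 members reached an unadjusted p of 0.05, and none of 44 pathway genes was called, with 7 at an unadjusted p under 0.05.

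The differences of the members between labels were 0.50 ± 0.30 for Ly96, 0.34 ± 0.31 for Tlr7, 0.25 ± 0.29 for Tlr13 and -0.25 ± 0.68 for Tlr2. Against replicate 3 alone, which shares the form of its name with the BMT + T cells library, Tlr2 differed by 0.96 and Tlr7 by 0.02, as single values without a test. Against replicates 1 and 2, Tlr2 differed by -0.86 in each case, so the BMT libraries lay on either side of the BMT + T cells library.

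The genes whose pattern over the 27 library and cluster means was most like that of a member are given as a description. For Tlr2 they were Glrx (Pearson r = 0.886), Rab20 (0.886) and Prdx5 (0.871). For Tlr13 they were C3ar1 (0.910) and C5ar1 (0.899), which encode complement receptors, and the cathepsin gene Ctsb (0.898). These points share libraries, depth and the annotation.

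In keratinocytes, Ly96 was the member with the most UMIs, with 1316 UMIs in 5426 cells, or 0.249 UMIs per 10,000 (exact Poisson 95% interval 0.236 to 0.263, counting error only). Its level in the 5 clusters ran from 0.193 (0.160 to 0.232) in KC_Four to 0.278 (0.245 to 0.315) in Differentiated cells. These intervals, of both libraries summed, do not meet, but in each library alone they do. Cd14 had 208 UMIs, or 0.0394 (0.0342 to 0.0451).

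Cd14 was at 0.0466 (0.0392 to 0.0550) in Basal and 0.0501 (0.0321 to 0.0745) in Follicular keratinocytes, and at 0.0232 (0.0144 to 0.0354) in Differentiated cells. The intervals of Basal and Differentiated cells do not meet when both libraries are summed. In the BMT + T cells library alone they meet, at 0.0487 (0.0382 to 0.0611) and 0.0346 (0.0184 to 0.0592). Tlr3 had 117 UMIs, or 0.0222 (0.0183 to 0.0266), and was likewise higher in Basal (0.0266, 0.0211 to 0.0331) than in Differentiated cells (0.0121, 0.00606 to 0.0217), although these intervals meet.

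Apart from Tlr3 and Tlr2, the receptor genes were close to or below detection in keratinocytes. Tlr2 had 45 UMIs, at 0.00853 (0.00622 to 0.0114). Tlr4, Tlr8, Tlr9 and Tlr13 had no UMI among 52777522, which allows up to 0.000568 UMIs per 10,000, and Tlr7 had 1 UMI. Myd88 had 21 UMIs, at 0.00398 (0.00246 to 0.00608). All 6 keratinocyte markers were present, at summed levels of 488 and 493 CP10K.

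With 1 keratinocyte library per label, the labels were compared without a test. For Ly96 the ratio of BMT + T cells to BMT was 1.00 (exact 95% interval 0.898 to 1.12, counting error only). Tlr3 was at 0.989 (0.675 to 1.44), Cd14 at 1.16 (0.874 to 1.54) and Myd88 at 0.836 (0.311 to 2.16). Tlr2 alone had an interval clear of 1, at 3.44 (1.70 to 7.54), from 11 UMIs under the BMT label and 34 under BMT + T cells.

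Most of the Tlr2 UMIs were in Basal cells, 8 and 24 in the respective libraries, for a ratio of 2.93 (1.27 to 7.54). Markers of other cells in the same libraries were as follows. Ptprc, which encodes CD45, was at 0 and 0.00120 CP10K, the 4 classical monocyte markers (3 detected) summed to 0.00252 and 0.00881, and the 4 macrophage markers (2 and 4 detected) to 0.00144 and 0.00481. Lyz2 itself was at 0.00108 and 0.00601 CP10K, and in Basal cells at 0.000674 and 0.00987, so it too was higher under BMT + T cells. In Follicular cells it went the other way, at 0.00395 and 0, as it did in KC_Four, at 0.00282 and 0. On these few Lyz2 UMIs, the UMI ratio of Tlr2 to Lyz2 was 3.67 and 2.27 in the keratinocyte libraries. It was 0.00595 to 0.524 in all 27 donor library and cluster pairs. The interferon-stimulated markers summed to 0.533 and 1.21, and the part of any of these in the Tlr2 difference was not tested.

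The host CD11b+MHCII+ library had its own profile, in 7 numbered clusters. Its cells were shallow, with 133 of 781 under 500 genes and 208 over 20% mitochondrial UMIs. Clusters 1 to 4 carried Langerhans cell markers, at summed levels of 25.0 to 307 CP10K. Cluster 5 had 43 cells with a median of 35812 UMIs and keratinocyte markers at 352 CP10K, and cluster 6 had 23 cells with T cell markers at 139, so neither matches the myeloid label of the sort.

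Myd88 was the host member with the most UMIs, 132, or 0.257 UMIs per 10,000 (0.215 to 0.304). That sum includes cluster 5 with its keratinocyte markers, which gave 30 UMIs, at 0.201 (0.136 to 0.287). The sorted keratinocytes were at 0.00398. Myd88 was highest in cluster 2, whose Cd207 was also the highest of the clusters, at 0.571 (0.416 to 0.763) from 45 UMIs. Cluster 1 had 0.194 (0.121 to 0.294) and cluster 3 0.266 (0.165 to 0.406). The median depth of cluster 2 was 1763.5 UMIs, and 90 of its 170 cells lie under 2000. As 1 library, these differences carry counting error only.

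The other host members were thin. Ly96 had 43 UMIs, 21 of them in cluster 5, and cluster 1 held 0.0353 UMIs per 10,000 (0.00960 to 0.0903). Tlr2 had 35 UMIs over the library, at 0.0681 (0.0474 to 0.0947), and reached 0.165 (0.0876 to 0.281) in cluster 3. Tlr4 had 22 UMIs, Cd14 14, Tlr13 7, Tlr3 5 and Tlr9 4.

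Set beside each other, as means over cells, resident mLCs of the donor had 0.427 to 0.594 CP10K of Tlr2, host clusters 1 to 4 between 0.0318 and 0.149, and keratinocytes 0.00394 and 0.0167. Tlr4 was at 0.0176 to 0.0631 CP10K in host clusters 1 to 4 and at 0 to 0.00368 in the resident mLC libraries. These levels rest on few UMIs, 22 among the 5141845 of all host clusters and 5 in all resident mLCs. The tables were normalized separately and the host library differs in depth and RNA quality, so no test was made between them.

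**Figure D5:**
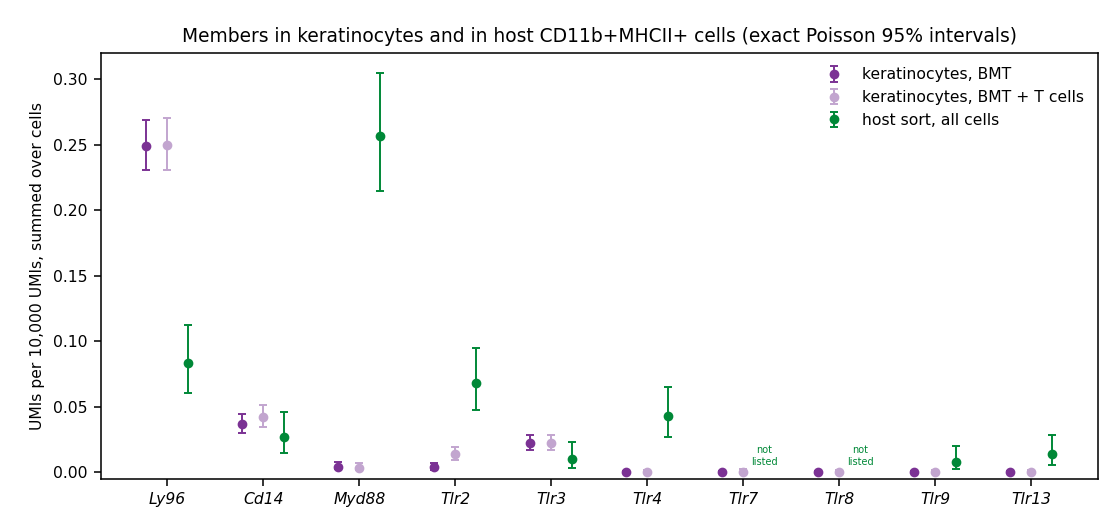
UMIs per 10,000 UMIs, summed over cells, of the 10 members in the keratinocyte libraries of each label and in the host library, with exact Poisson 95% intervals. Ly96 is at 0.249 and 0.250 in keratinocytes and Myd88 at 0.257 in host cells, while Tlr4, Tlr8, Tlr9 and Tlr13 sit at 0 in keratinocytes.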

How the data were processed

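Droplet single-cell RNA sequencing of 7 libraries (4 donor CD11b+MHCII+, 2 keratinocyte, 1 host CD11b+MHCII+) was analysed. The deposited expression values are natural logs of 1 plus UMIs per 10,000 UMIs of a cell. The authors counted reads with kallisto and bustools and scaled them in Seurat, and the submitters' processing notes name GRCm38. Versions are not given in the sources used here. The deposited mitochondrial share is in percent, and batch and cluster columns were used as given. After undoing the log, 100% of values were whole UMIs within a tolerance of 0.001. The genes of the donor table carried 91.3% of UMIs in the median cell. The authors state that doublets were removed, and none was looked for again.

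CP10K was averaged per library and donor cluster with at least 20 cells. For genes whose mean reached 0.1 CP10K, log2(CP10K + 0.1) was tested with limma 3.58.1 (R 4.3.3, statmod 1.5.0, trend and robust, library as a fixed term, Benjamini-Hochberg). The clusters share 1 estimate of the spread. The study combined separate sorting experiments on pooled mice, but no source ties single libraries to separate pools, so p values measure the spread between libraries, part of which may be technical. The scripts were tested on simulated data. Thinning to 2000 UMIs left out 182, 770, 38 and 87 cells of donor replicates 1 to 4. Intervals are exact at 95%, and a count of 0 allows 3 counts. Both cover counting error only, since UMIs of a library come from the same cells. Levels, intervals and plots were made in Python 3.11.15 (pandas 2.3.3, SciPy 1.17.1, matplotlib 3.10.9, NumPy 2.4.6).

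The text names the 10 members, the counts of each pathway list, the 3 called genes of all lists with the largest rise and the 3 with the largest fall in a comparison, and for each member reaching 0.5 CP10K in a donor cluster the 3 genes of highest Pearson r. Nfkb1, Nfkb2, Rel, Relb, Nfkbia, Unc93b1, Tlr1 and Tlr6 were named after their values were seen. The members and lists were chosen with earlier results of these data known. Alternatives varied the pseudocount, the filters, the averaging, the threshold, the model and the libraries included.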

Additional observations from a re-analysis of the deposited data

Results flagged for a closer look

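The values of Tlr2 stood apart between the BMT + T cells and BMT labels in a pair of contrasts, and in the ISG contrast they had opposite signs. Mrc1+ macrophages minus Mono gave 0.00859 on the log2 scale in the BMT + T cells library, at the level of no difference, whereas the BMT libraries gave -1.12, -0.44 and -0.79. ISG monocytes minus Mono gave 0.29 in the BMT + T cells library and -0.70 and -0.34 in BMT replicates 1 and 2, the BMT libraries with enough cells. These differences between labels rest on 1 library under BMT + T cells and were not tested.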

How the results depend on the processing

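Counts of called members changed mainly with the pseudocount and the fold threshold. For resident mLCs against Mono, 4 members were called, but 0 with a pseudocount of 1, 0 with means of log values and 1 (Tlr7) above an absolute log2 difference of 2. Leaving out any library kept 4. For resident mLCs against Mrc1+ macrophages, 2 were called, but 0 with a pseudocount of 1, 0 with means of log values, 0 above 2, 4 with at least 50 cells and 4 with limma-voom. Leaving out a library gave 2 to 4, with 4 without BMT replicate 3. For resident mLCs against MC, 0 were called, but 2 with a pseudocount of 0.01, 2 with limma-voom, and 0 to 1 when a library was left out, with Tlr13 called without BMT replicate 3 (-1.01). No direction of a called member reversed in any alternative run. Leaving out cells under 500 genes or over 20% mitochondrial UMIs, an alternative added after seeing the data, kept 4 calls against Mono and brought Tlr2 over the threshold against Mrc1+ macrophages (-1.03). No paired analysis of the labels was possible, because BMT + T cells has 1 donor library and no label pairs it with a BMT library. Cluster contrasts lie within libraries and had library as a term. The comparison of labels without its lone BMT + T cells library could not be run. Low UMI counts limit Tlr3, Tlr4, Tlr8 and Tlr9 most.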
